A study of Mus musculus with 20 samples.

Results

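The expression of 10 genes associated with dendritic cells (DCs), namely Flt3, Ccr7, Cd209a, Zbtb46, Batf3, Itgae, Itgax, Fscn1, Ccl17 and Ccl22, was followed in RNA of dural CNS-associated macrophages (dCAMs), the macrophages of the outer meninges of the mouse brain. The genes were chosen by symbol, with earlier results of these data known, and all 10 were found among the 33243 symbols of the count table. The shares over all genes given beside them are therefore descriptive. In mice injected with lipopolysaccharide (LPS), 6 of them were higher in the tdT- than in the tdT+ library of every mouse. These were Flt3, Ccr7, Fscn1, Ccl17, Ccl22 and Batf3, and 4.71% of all genes tested did the same. The groups did not overlap for the 6 genes except Batf3, nor for 1.15% of all genes in this direction. The main fit of all 20 libraries called none of the 10 genes in this comparison. A fit of the 10 libraries of LPS mice alone called 5. Ccr7 averaged 401 ± 155 CPM (SD, n = 5) in tdT- and 7.21 ± 6.26 CPM (SD, n = 5) in tdT+ dCAMs of these mice. Cd209a fell with LPS, from 1228 ± 929 CPM (SD, n = 5) in tdT- dCAMs of control mice to 26.8 ± 22.4 CPM (SD, n = 5) after LPS.

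DCs take up antigen, carry it to lymph nodes and present it to T cells. Their precursors depend on the growth factor receptor Flt3, conventional DCs express the transcription factor Zbtb46, and the lineage that cross-presents antigen needs Batf3. DCs that have taken up antigen and been activated switch on Ccr7, which guides them into lymphatics, together with the actin-bundling protein Fscn1 and the T cell-attracting chemokines Ccl17 and Ccl22. Macrophages share several of these genes, and Cd209a and Itgax are found in subsets of both cell types.

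All mice carried 1 Ccr2creERT2 allele and the R26tdT reporter on both Rosa26 alleles, were young adults of either sex, and were depleted of macrophages by gavage with the CSF1R inhibitor BLZ945 (200 mg/kg) for 7 days. Tamoxifen (2 mg per day) then switched on tdTomato (tdT) in cells expressing Ccr2, the monocyte chemokine receptor, and 8 weeks later the mice received LPS (2.5 mg/kg) or PBS (CTL), 12 h before the cranial dura was taken. Cells with intermediate CD45, CD11b and intermediate to high CD206 were separated by tdT, giving a tdT+ and a tdT- fraction from each of 5 CTL mice (174, 175, 177, 178 and 179) and 5 LPS mice (54, 56, 59, 60 and 61), which gave 20 libraries in 4 groups of 5. The label marks only cells that expressed Ccr2 while tamoxifen was present and their progeny, so the tdT- fraction holds every other cell in the gate, and no undepleted mice were part of these 4 groups.

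Library totals ranged from 6017650 to 18925908 counts. Those of CTL libraries (6649046 to 9495177 in tdT- and 6017650 to 12208203 in tdT+) were mostly below those of LPS libraries. The latter ran from 12177799 to 16477892 in tdT- and from 12073566 to 18925908 in tdT+. A level of 3 counts thus stood for 0.230 to 0.487 CPM in CTL and 0.170 to 0.2475 CPM in LPS libraries. All 12 border macrophage markers lay over the floor of 3 counts in every library, and their summed level was 19381 to 41531 CPM in tdT- CTL, 40318 to 49731 CPM in tdT+ CTL, 11726 to 16411 CPM in tdT- LPS and 15138 to 18617 CPM in tdT+ LPS libraries. The tdT- CTL libraries detected fewer genes (6671 to 9365 with at least 10 counts) than the tdT+ CTL (10024 to 11032), tdT- LPS (10930 to 11812) and tdT+ LPS libraries (11250 to 11987). In bulk RNA, fewer cells of a type and less RNA per cell cannot be told apart. CPM stands for the count of a gene scaled to a common total after TMM normalization, and a gene was called when its Benjamini-Hochberg adjusted p was under 0.05 and its absolute log2 fold change over 1.

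The summed level of the 10 genes was 807 to 3544 CPM in the tdT- CTL libraries, 501 to 967 CPM in tdT- LPS, 63.1 to 125 CPM in tdT+ CTL and 31.2 to 101 CPM in tdT+ LPS libraries. The tdT- and tdT+ ranges did not overlap in either treatment. In CTL mice that separation rested on Cd209a, which held 1199 of the 1264 CPM in tdT- mouse 177 and 2774 of the 3544 CPM in 174. In tdT- mouse 175 it held 315 of the 807 CPM. All 10 genes had a fitted difference towards lower levels in tdT+ dCAMs, in CTL as in LPS mice, whereas 8335 of the 16632 genes tested did so in CTL and 8108 in LPS mice. The median log2 fold change of the 10 genes (tdT+ against tdT-) was -4.37 in CTL mice, or -3.95 with Itgae at its bound, beside -0.0052 over all genes tested. The corresponding median in LPS mice was -2.92, or -2.10 with Flt3 and Itgae at their bounds, beside 0 over all genes.

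**Figure D1:**
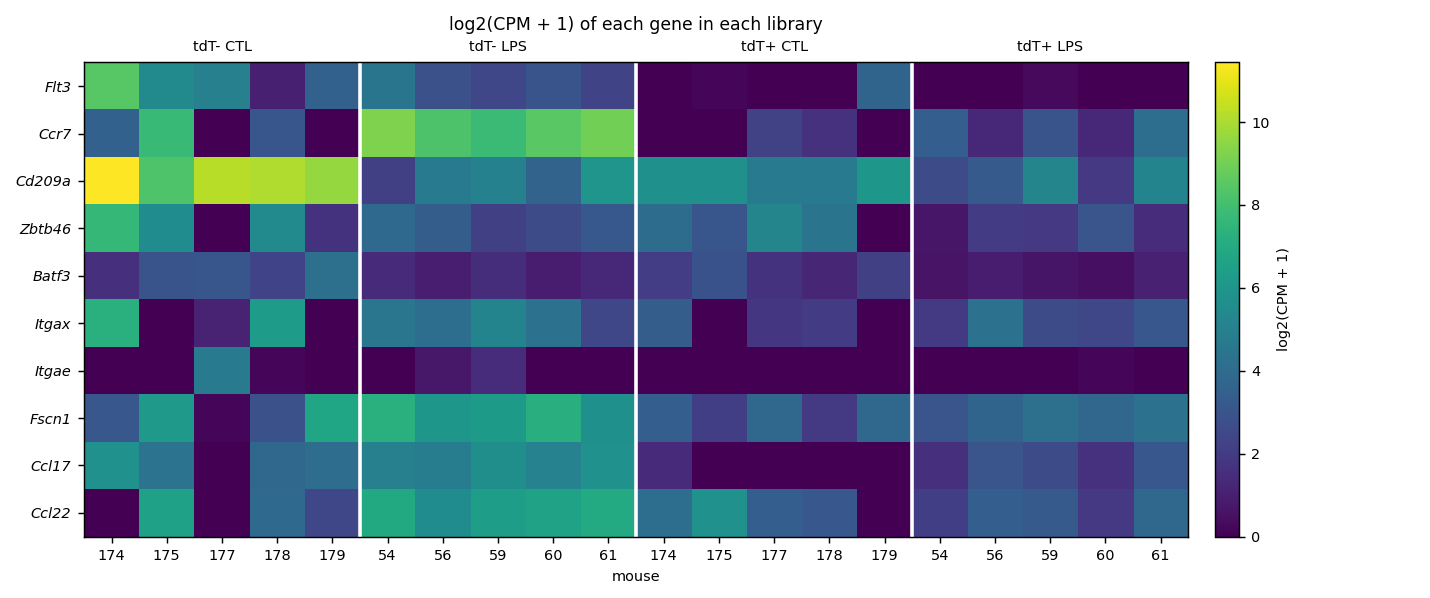
Heatmap of log2(CPM + 1) for the 10 genes (rows) in the 20 libraries (columns, labelled by mouse and split by white lines into the 4 groups). Ccr7 is bright in the 5 tdT- LPS libraries (222 to 599 CPM) and in the tdT- library of CTL mouse 175 (214 CPM), and Cd209a is bright in the 5 tdT- CTL libraries (315 to 2774 CPM).

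The growth factor receptor Flt3, located on chromosome 5 (147330741 to 147400489, minus strand, GRCm38), was measured in all tdT- libraries. It reached 348 CPM in CTL mouse 174, 43.7 CPM in 175, 30.7 CPM in 177, 1.02 CPM in 178 and 10.6 CPM in 179. After LPS the tdT- libraries held 20.8 CPM in mouse 54, 6.20 CPM in 56, 4.42 CPM in 59, 6.72 CPM in 60 and 4.07 CPM in 61. The CTL values spread over 2 orders of magnitude and overlapped the LPS values. In tdT+ dCAMs only CTL mouse 179 was over the floor of 3 counts, with 12.0 CPM, and all 5 LPS libraries were at or under it (0 counts in 4 libraries and 3 counts in mouse 59). Set against 3 counts in each tdT+ library, Flt3 was at least 38.8-fold higher in the tdT- dCAMs of LPS mice, or at least 24.9-fold without mouse 54. Against the same floor, the tdT+ mean of CTL mice was at least 11.1-fold higher than that of LPS mice, which rested on mouse 179 alone. An antisense gene, Gm26597, overlaps Flt3, and whether the counting used strand is not given in the sources used here.

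The chemokine receptor Ccr7 (chromosome 11, 99144196 to 99155077, minus strand) guides activated DCs to lymph nodes. In the tdT- dCAMs of CTL mice it was at 10.8 CPM in mouse 174, 214 CPM in 175, 0 CPM in 177, 7.23 CPM in 178 and 0 CPM in 179. In those of LPS mice it was at 599 CPM in mouse 54, 301 CPM in 56, 222 CPM in 59, 363 CPM in 60 and 519 CPM in 61. Each LPS value exceeded each CTL value, but mouse 175 came within 10 CPM of the lowest LPS library. The tdT+ dCAMs stayed low, with 0 CPM in CTL mice 174, 175 and 179, 3.81 CPM in 177 and 2.10 CPM in 178, and with 9.81, 1.49, 6.89, 1.49 and 16.4 CPM in LPS mice 54, 56, 59, 60 and 61. The ratio of the tdT- to the tdT+ library of the same LPS mouse ranged from 31.7 in mouse 61 to 244 in mouse 60. Of its ligands, Ccl19 had no count in tdT- CTL libraries and 0.727 ± 0.371 CPM (SD, n = 5) in tdT- LPS libraries, at least 1.93-fold higher, while Ccl21a was over the floor in 1 of the 20 libraries.

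The lectin Cd209a (chromosome 8, 3743397 to 3748984, minus strand) binds sugars of pathogens and is known as a mouse relative of DC-SIGN. Its tdT- level in CTL mice was 2774 CPM in mouse 174, 315 CPM in 175, 1199 CPM in 177, 1072 CPM in 178 and 779.7 CPM in 179. After LPS it was 3.44 CPM in mouse 54, 26.3 CPM in 56, 31.6 CPM in 59, 11.3 CPM in 60 and 61.5 CPM in 61. The groups did not overlap. In tdT+ dCAMs it was 51.8, 52.8, 25.5, 25.7 and 65.1 CPM in CTL mice 174, 175, 177, 178 and 179, and 5.13, 8.42, 36.4, 2.74 and 34.3 CPM in LPS mice 54, 56, 59, 60 and 61. These ranges overlapped, and they also overlapped that of the tdT- LPS libraries, so that the tdT- CTL group stood alone. Related genes of the Cd209 family were counted separately, the largest being Cd209f with 14821 counts over the 20 libraries, and reads shared between the paralogs could not be traced here.

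Of the transcription factors, Zbtb46 (chromosome 2, 181387762 to 181459426, minus strand) marks conventional DCs. It was at 197, 46.1, 0, 44.0 and 2.22 CPM in the tdT- libraries of CTL mice 174, 175, 177, 178 and 179 and at 3.44 to 14.1 CPM in those of LPS mice. In tdT+ dCAMs it was at 0 to 36.2 CPM in CTL and at 0.604 to 7.19 CPM in LPS mice. All ranges overlapped. Batf3 (chromosome 1, 191097847 to 191108945, plus strand), required for cross-presenting DCs, was low but present in all 20 libraries. In tdT- dCAMs it was at 1.97, 6.81, 7.24, 3.95 and 17.4 CPM in CTL mice 174, 175, 177, 178 and 179 and at 1.68, 0.970, 1.78, 0.902 and 1.46 CPM in LPS mice 54, 56, 59, 60 and 61. In tdT+ dCAMs it was at 1.36 to 6.47 CPM in CTL and 0.391 to 1.08 CPM in LPS mice. In both populations each LPS value lay below each CTL value, although the gap was narrow in tdT- dCAMs (1.78 CPM against 1.97 CPM).

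Of the integrins, Itgax (chromosome 7, 128129547 to 128150657, plus strand) encodes CD11c, the surface protein by which DCs are often gated, and whether CD11c was part of the sort is not given in the sources used here. Its tdT- level in CTL mice was 152, 0, 1.10, 76.5 and 0 CPM in 174, 175, 177, 178 and 179, and 4.39 to 34.6 CPM in LPS mice. In tdT+ dCAMs it was at 0 to 9.25 CPM in CTL and 2.79 to 19.1 CPM in LPS mice. The tdT- CTL libraries thus held both its highest values and 2 of its 4 zeros. Itgae (chromosome 11, 73090583 to 73147446, plus strand), which encodes CD103, was over the floor in only 3 of 20 libraries, the tdT- libraries of CTL mouse 177 (26.02 CPM) and of LPS mice 56 (0.672 CPM) and 59 (1.72 CPM). It had no count in tdT+ CTL libraries, so that the tdT- mean was at least 15.4-fold higher, a bound that rested on mouse 177. Haspin overlaps Itgae on the opposite strand. The integrin beta chain that pairs with CD103, Itgb7, was over the floor in all 20 libraries, with 88.4 ± 109 CPM (SD, n = 5) in tdT- CTL and 26.7 ± 9.96 CPM (SD, n = 5) in tdT- LPS libraries, and was not called in any comparison.

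Fscn1 (chromosome 5, 142960343 to 142973185, plus strand) bundles actin in the dendrites of activated DCs and is also used by fibroblasts and endothelium. Its tdT- level was 7.74, 70.1, 0.123, 6.21 and 109.6 CPM in CTL mice 174, 175, 177, 178 and 179 and 151, 66.1, 75.2, 141 and 52.5 CPM in LPS mice 54, 56, 59, 60 and 61. Its tdT+ level was 2.83 to 13.6 CPM in CTL and 7.09 to 18.8 CPM in LPS mice. CTL mice 175 and 179 lay within the tdT- LPS range. The tdT- library of mouse 179 also held the highest summed fibroblast markers (3993 CPM, against 10.9 to 876 CPM in the other tdT- CTL libraries), and their part in its Fscn1 level was not tested.

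The chemokine genes Ccl17 and Ccl22 encode the ligands of Ccr4, a receptor of helper and regulatory T cells, and lie 58753 bases apart on chromosome 8 (Ccl22 from 94745590 to 94751699 and Ccl17 from 94810453 to 94812036, both on the plus strand). The tdT- level of Ccl17 was 53.4, 19.2, 0, 13.1 and 16.0 CPM in CTL mice 174, 175, 177, 178 and 179 and 30.3, 27.0, 50.1, 32.6 and 54.3 CPM in LPS mice 54, 56, 59, 60 and 61. In tdT+ dCAMs Ccl17 had no count in 4 CTL libraries and 1.62 CPM in mouse 174, and was above that range in each LPS library, with 1.89, 7.10, 5.36, 2.11 and 7.72 CPM. Ccl22 was at 0, 92.7, 0, 14.1 and 4.45 CPM in the tdT- libraries of CTL mice 174, 175, 177, 178 and 179 and at 124, 46.7, 85.2, 94.1 and 126 CPM in those of LPS mice 54, 56, 59, 60 and 61. In tdT+ dCAMs Ccl22 was at 0 to 54.6 CPM in CTL and 2.74 to 13.0 CPM in LPS mice. The neighbouring genes thus differed in tdT+ CTL libraries, where Ccl22 was over the floor in 4 of 5 and Ccl17 in 1 of 5.

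**Figure D2:**
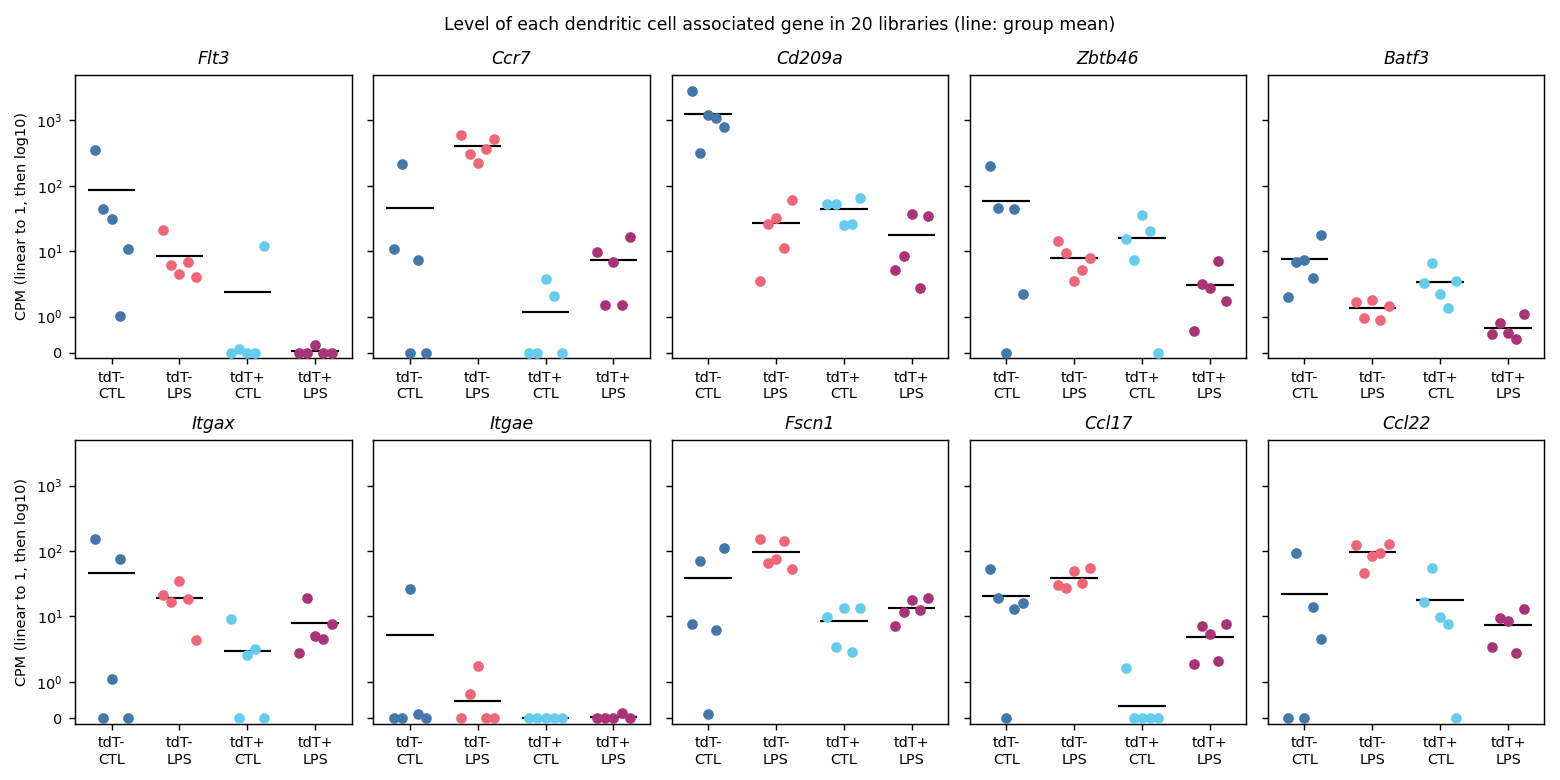
Level of each gene in each library (points, 5 per group) with the group mean (line), in CPM on an axis that is linear to 1 and log10 above it. The tdT- LPS points of Ccr7, Fscn1, Ccl17 and Ccl22 lie above all tdT+ LPS points, and the tdT- CTL points of Cd209a (315 to 2774 CPM) lie above those of the other 3 groups.

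The promoters of 3 genes that were high together in tdT- LPS libraries, and of Cd209a, which was low there, are shown to let their sequences be compared. RefSeq (GRCm38.p6) gave a promoter for 8 of the 10 genes, Ccr7 and Itgae being the others. The 250 bases before the RefSeq start of transcription are printed 5′ to 3′ on the strand of the gene. Distances are counted from that start. For Fscn1, Ccl22, Itgax, Batf3 and Zbtb46 it lies inside the gene span given above, which came from another annotation. The end of the Fscn1 and Ccl22 windows therefore overlaps that span, while those of Ccl17 and Cd209a end next to it. Capitals mark matches, on either strand, to 5 motifs, the kappaB site, PU.1 (GAGGAA), AP-1 (TGANTCA), the interferon response element ISRE and the TATA box (TATAAA). The windows are chr5:142960105-142960354 (plus strand) for Fscn1, chr8:94810203-94810452 (plus strand) for Ccl17, chr8:94745434-94745683 (plus strand) for Ccl22 and chr8:3748985-3749234 (minus strand) for Cd209a.
Fscn1: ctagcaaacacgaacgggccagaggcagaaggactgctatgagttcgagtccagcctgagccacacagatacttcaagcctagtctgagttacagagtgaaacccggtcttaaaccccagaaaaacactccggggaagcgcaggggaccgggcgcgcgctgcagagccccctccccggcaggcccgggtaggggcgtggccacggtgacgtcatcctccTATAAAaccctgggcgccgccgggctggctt
Ccl17: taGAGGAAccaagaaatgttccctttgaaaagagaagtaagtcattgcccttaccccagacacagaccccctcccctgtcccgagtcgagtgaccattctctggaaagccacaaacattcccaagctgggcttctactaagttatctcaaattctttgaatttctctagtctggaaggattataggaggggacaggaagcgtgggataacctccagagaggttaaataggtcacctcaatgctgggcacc
Ccl22: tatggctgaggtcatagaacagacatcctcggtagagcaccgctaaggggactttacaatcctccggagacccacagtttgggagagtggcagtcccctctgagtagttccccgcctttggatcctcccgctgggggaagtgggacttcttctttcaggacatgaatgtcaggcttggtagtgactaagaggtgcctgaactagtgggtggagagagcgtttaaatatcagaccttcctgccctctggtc
Cd209a: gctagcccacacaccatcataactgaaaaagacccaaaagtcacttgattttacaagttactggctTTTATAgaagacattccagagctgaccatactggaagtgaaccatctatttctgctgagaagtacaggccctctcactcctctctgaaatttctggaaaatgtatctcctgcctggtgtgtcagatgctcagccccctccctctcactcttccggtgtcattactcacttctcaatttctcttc
Fscn1 held a TATA box whose first base lies 31 bases before the start, Ccl17 held a PU.1 match 248 bases before it, and Cd209a held a TATA match on the opposite strand 184 bases before it. Ccl22 held none of the 5 motifs. Over the 8 promoters, PU.1 was matched in Ccl17 and Batf3, AP-1 in Zbtb46 and Itgax (61 and 56 bases before the RefSeq start), and TATA in Fscn1 and Cd209a. The windows of Zbtb46 (181424389 to 181424638) and Batf3 (191098164 to 191098413) lie wholly inside the gene spans given above. Their matches are thus not shown to precede the outermost start of the gene. The kappaB site and the interferon element were matched in none of them. Among 32851 promoters of the same length, 7.25% held a kappaB site, 23.3% PU.1, 6.75% AP-1, 2.98% the interferon element and 12.4% TATA. A match is a description of the letters in the window.

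Comparison of LPS with CTL in tdT- dCAMs asked how these genes respond to endotoxin in cells without the Ccr2 label. Cd209a was the 1 of 10 genes called, with a log2 fold change of -5.52 ± 0.84 (SE) and an adjusted p of 0.000119 in the joint edgeR fit, and it was called under all 19 alternative settings (adjusted p at most 0.0365). Over all genes, 4.27% were called lower and 7.2% higher. Batf3 missed the threshold (-2.45 ± 0.82, adjusted p 0.0535) and was called in 7 of 19 alternatives. Ccr7 differed by 3.11 ± 1.46 (adjusted p 0.156), Ccl22 by 2.10 ± 1.36 (adjusted p 0.313) and Fscn1 by 1.33 ± 0.91 (adjusted p 0.341). Flt3 (-3.36 ± 1.57, adjusted p 0.154) and Zbtb46 (-2.85 ± 1.35, adjusted p 0.16) had an unadjusted p under 0.05, as did 5 of the 10 genes in all and 30.2% of all genes tested. The median of the 10 genes was -1.85, beside 0.022 over all genes.

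Single CTL mice decided several of these calls. Without mouse 175, whose tdT- library was high in Ccr7, Fscn1 and Ccl22, 4 genes were called, where 10.9% of all genes were called higher and 4.89% lower, with Ccr7 at 6.60 ± 1.54 (adjusted p 0.00595, range over the alternatives 0.0037 to 0.264) and Ccl22 at 4.46 ± 1.47 (adjusted p 0.0443, range 0.0082 to 0.444) added as higher. Batf3 was the other gene added (adjusted p 0.043, range 0.000105 to 0.175). Without mouse 174 or without 178, Batf3 joined Cd209a, and without mouse 179 Flt3 did. With mouse as a block in limma-voom, 5 genes were called, 3 higher (Ccr7, Fscn1 and Ccl22, where 22% of all genes were called higher) and 2 lower (Cd209a and Batf3, where 5.23% were). The same 5 were called by limma-voom without the pairing, an alternative added after the data were seen.

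In tdT+ dCAMs LPS changed none of the 10 genes by the threshold of the joint edgeR fit, while 3.37% of all genes were called higher and 2.52% lower. An unadjusted p under 0.05 was reached by 19.6% of all genes and by 3 of the 10, Flt3, Batf3 (-2.29 ± 0.81, adjusted p 0.112) and Ccl17 (3.99 ± 1.40, adjusted p 0.107). DESeq2 called these 3, Ccl17 as higher (4.88% of all genes) and Flt3 and Batf3 as lower (4.41% of all genes). limma-voom with mouse as a block called Ccl17 higher (5.88% of all genes) and Batf3 lower (3.57% of all genes). Ccl17 was also called without mouse 174, the only tdT+ CTL library with a count of it, and Flt3 without mouse 178. The median of the 10 genes was -0.29, or -1.25 with Flt3 at its bound and Itgae left out because both groups were at the floor, beside 0.0084 over all genes.

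In CTL mice, 2 of the 10 genes were lower in tdT+ than in tdT- dCAMs, where 1.27% of all genes were called lower and 3.01% higher. Cd209a differed by -4.80 ± 0.81 (adjusted p 0.00129), with the tdT- library higher in 5 of 5 mice, and it was called under all 19 alternatives. Ccl17 differed by -6.06 ± 1.52 (adjusted p 0.0238), with the tdT- library higher in 4 of 5 mice and no count on either side in mouse 177. Its call held in 16 of 19 alternatives and was lost without LPS mouse 59 (adjusted p 0.0523) and in both fits of the 10 CTL libraries (adjusted p 0.309, and 0.642 with mouse as a block), where Cd209a alone was called. Ccr7 (-5.28 ± 1.65, adjusted p 0.0714) and Flt3 (-5.14 ± 1.71, adjusted p 0.0885) missed the threshold. The difference was -1.43 (adjusted p 0.546) for Ccr7 without mouse 175 and -2.82 (adjusted p 0.324) for Flt3 without mouse 174, the mice with their highest tdT- levels. Without CTL mouse 179, the 1 tdT+ library with Flt3 over the floor, Flt3 was called as lower (adjusted p 0.000849, range over the alternatives 0.000849 to 0.642), and without mouse 177 Ccr7 was called (adjusted p 0.0311, range 0.00735 to 0.706).

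In LPS mice the joint edgeR fit called none of the 10 genes between tdT+ and tdT- dCAMs, where 0% of all genes were called higher and 0.0301% lower. Flt3, Ccr7, Fscn1, Ccl17 and Ccl22 had an unadjusted p under 0.05 (0.00143 to 0.0298), as did 5.41% of all genes, and adjusted p of 0.913. The spread in that fit was estimated over all 20 libraries. In the edgeR fit of the 10 LPS libraries alone, the 5 genes were called as lower in tdT+ dCAMs, where 0.244% of all 15163 genes tested were. Ccr7 differed by -5.76 ± 0.61 (adjusted p 0.00143, range over its alternatives 0.000404 to 1), Ccl22 by -3.66 ± 0.42 (0.00206, range 0.00206 to 1), Ccl17 by -2.99 ± 0.41 (0.00464, range 0.00197 to 1) and Fscn1 by -2.82 ± 0.34 (0.00206, range 0.00206 to 1). Flt3 had an adjusted p of 0.0061 (range 0.0061 to 1), its fold being the bound given above. With mouse as a block in those 10 libraries the count was again 5, whereas with mouse as a block in all 20 libraries it was 0. DESeq2 on the 20 libraries called Ccr7 and Flt3 (0.271% of all genes lower). Over the 19 alternatives, Ccr7 and Flt3 were each called in 3, and Ccl17, Ccl22 and Fscn1 each in 2.

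The tdT- library was the higher of the pair in 5 of 5 LPS mice for 6 genes, these 5 and Batf3 (ratios of 1.18 to 3.20), as it was for 4.71% of all genes tested. The groups did not overlap for the 5 genes, nor for 1.15% of all genes in this direction, whereas those of Batf3 overlapped. The ratio of the tdT- to the tdT+ library of a mouse ranged from 4.87 to 36.5 for Ccl22, from 3.81 to 16.1 for Ccl17 and from 2.78 to 21.3 for Fscn1. Mice 54 and 60 had the largest ratios for Ccl22, Ccl17 and Fscn1. Cd209a (-0.62 ± 0.70), Zbtb46 (-1.37 ± 1.29), Batf3 (-0.997 ± 0.783) and Itgax (-1.29 ± 1.54) had adjusted p of 1 in the joint fit and were not called in the fit of the 10 LPS libraries (adjusted p 0.472 to 0.892).

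**Figure D3:**
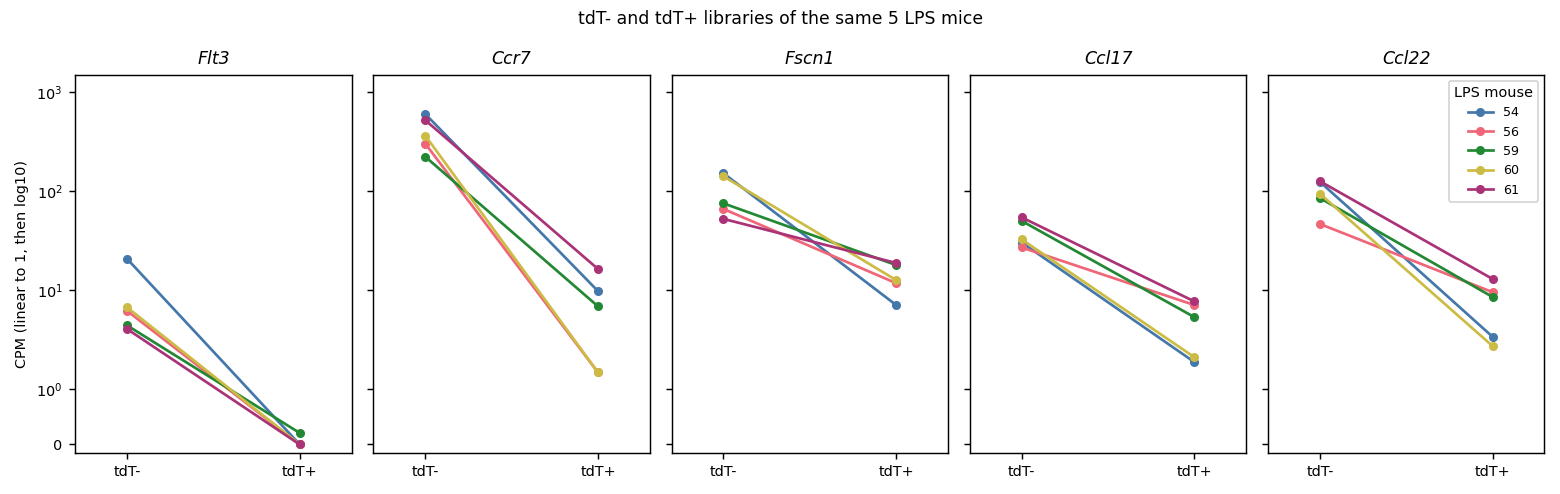
tdT- and tdT+ library of each of the 5 LPS mice (lines join the libraries of a mouse) for Flt3, Ccr7, Fscn1, Ccl17 and Ccl22, in CPM on an axis that is linear to 1 and log10 above it. Every line falls from tdT- to tdT+, for Ccr7 from 222 to 599 CPM down to 1.49 to 16.4 CPM.

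The LPS effects of the populations differed for Cd209a by the interaction term (4.17 ± 1.02, tdT+ minus tdT-, adjusted p 0.0463), where 0.0902% of all genes were called higher and 1.17% lower. Cd209a fell by 5.52 on the log2 scale in tdT- dCAMs, while its difference in tdT+ dCAMs was -1.34 ± 0.71 (adjusted p 0.315). The call was lost with sex as a term (adjusted p 0.0622), without CTL mouse 174, 177 or 178 (0.108, 0.088 and 0.0841) and without any 1 of LPS mice 54, 56, 59, 60 and 61 (0.0696, 0.117, 0.163, 0.0715 and 0.0742), over a range of 0.00204 to 0.163 for all alternatives. For the other 9 genes the interaction was not called. It was -3.34 ± 1.90 for Ccl22 (adjusted p 0.51) and 3.06 ± 1.77 for Ccl17 (adjusted p 0.522).

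**Figure D4:**
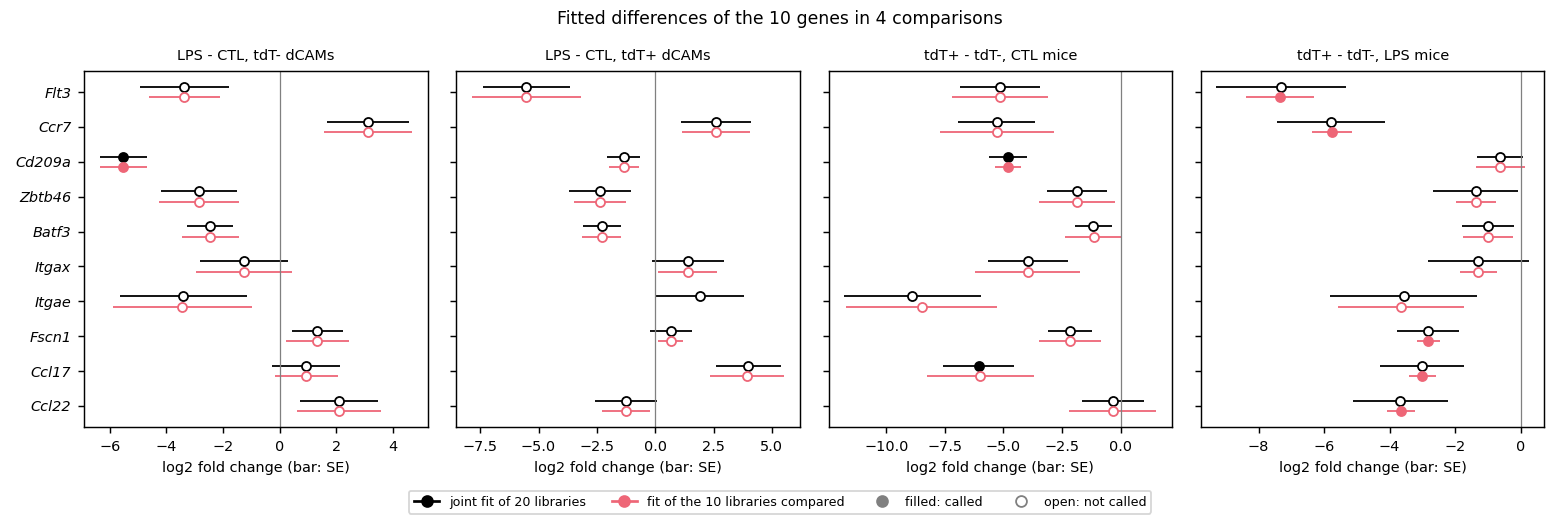
Log2 fold change (points) and SE (bars) of the 10 genes in 4 comparisons, from the joint fit of 20 libraries (black) and from the fit of the 10 libraries compared (red, without Itgae in the tdT+ comparison, where its total count was too low), with called genes filled. In LPS mice the red bars are shorter than the black ones for Ccr7 (0.61 against 1.66) and Ccl22 (0.42 against 1.46) at nearly the same fold changes.

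Which genes moved together across mice was measured on the log2 CPM of 9 genes (all but Itgae), averaged over the 2 libraries of a mouse and centred on the treatment mean. Of 36 pairs, 22 had a positive r, and none passed after Benjamini-Hochberg adjustment. An unadjusted p under 0.05 was reached by 3 pairs by the two-sided exact permutation of mice within treatment. Ccr7 and Ccl22 had r = 0.83 (exact permutation p 0.0212, adjusted p 0.315, n = 10 mice) and rho = 0.77 (exact permutation p 0.0275, adjusted p 0.33), and r was 0.70 without mice 175 and 179. In tdT- libraries alone r was 0.58 (exact permutation p 0.271, adjusted p 0.85) and in tdT+ libraries alone 0.16 (exact permutation p 0.833, adjusted p 0.901), with rho of 0.37 and -0.092. Batf3 and Itgax had r = -0.91 (exact permutation p 0.0262, adjusted p 0.315) and rho = -0.85 (exact permutation p 0.0231, adjusted p 0.33), and r was -0.84 without mice 178 and 179. In tdT- libraries alone r was -0.80 and in tdT+ libraries alone -0.39. Cd209a and Ccl17 had r = 0.47 (exact permutation p 0.0255, adjusted p 0.315) and rho = 0.75 (exact permutation p 0.0222, adjusted p 0.33), and r was 0.46 without mice 54 and 61. In tdT- libraries alone r was 0.082 and in tdT+ libraries alone 0.47.

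**Figure D5:**
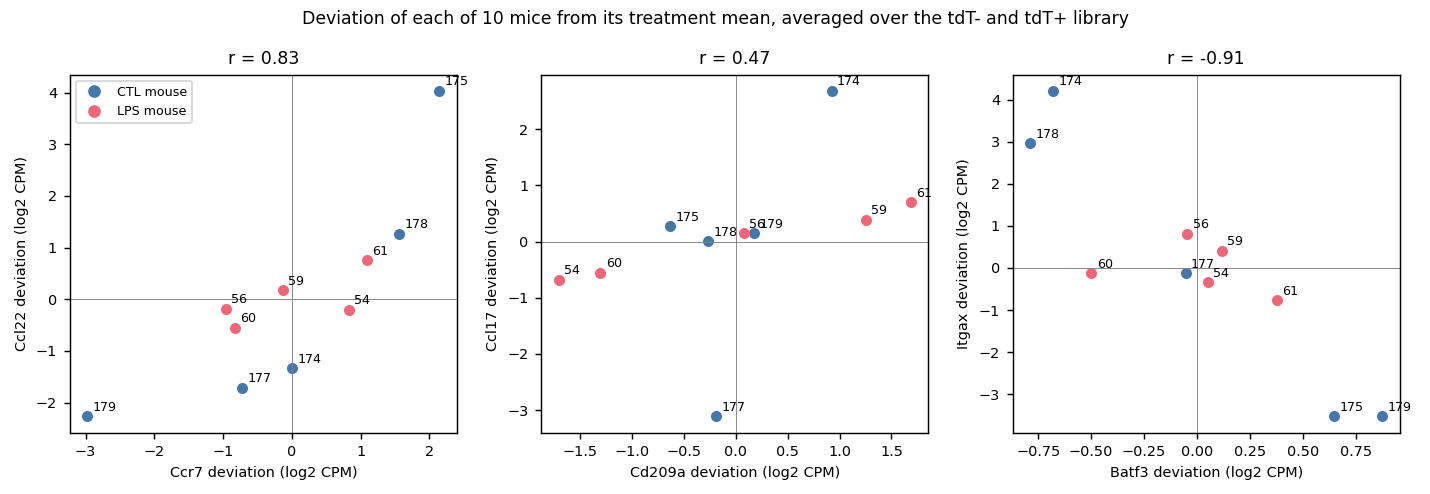
Deviation of each of 10 mice from its treatment mean (log2 CPM, averaged over the tdT- and tdT+ library) for the 3 pairs of genes with the smallest permutation p. CTL mice (blue) spread wider than LPS mice (red) for Ccl22 and Itgax, and mouse 177 lies alone at the bottom for Ccl17.

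Within the tdT- CTL libraries the genes peaked in different mice. Mouse 174 held the highest Flt3, Cd209a, Zbtb46, Itgax and Ccl17 but no count of Ccl22. Mouse 175 held the highest Ccr7 and Ccl22 but no count of Itgax. Mouse 177 held the highest Itgae but no count of Ccr7, Zbtb46, Ccl17 or Ccl22, and mouse 179 held the highest Fscn1 and Batf3 but no count of Ccr7 or Itgax. Beyond the 10 genes, those whose deviations from the group means over the 20 libraries correlated best with a member (5821 genes searched, whose log2 CPM averaged 4 or more) were Stk3, Ctr9 and Tmub2 for Ccr7 (r 0.84 to 0.87), Vps36, Tigd2 and Ankhd1 for Ccl22 (0.86 to 0.89) and Pisd, Arid3a and Inip for Ccl17 (0.89 to 0.90). For Flt3 they were Itgam, B4galt6 and Slc35e1 (0.80 for each) and for Zbtb46 Tbcd, Map4k3 and Smarcc1 (0.83 to 0.93). For Batf3 they were Prkcd, Armc7 and Rnf11 (0.79 to 0.81) and for Cd209a Wfdc17, Fcgr2b and Tmem243 (0.71 to 0.77). The 10 genes themselves were left out of the search, and libraries shared depth and detection, so the values are descriptive.

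Other DC genes were read as whole lists, and the shares of all genes called in the joint fit apply to each. With LPS they were 7.2% higher and 4.27% lower in tdT- dCAMs, and 3.37% higher and 2.52% lower in tdT+ dCAMs. For tdT+ against tdT- dCAMs they were 3.01% higher and 1.27% lower in CTL mice, and 0% higher and 0.0301% lower in LPS mice. Of 20 genes of mature DCs, 2 rose and 2 fell with LPS in tdT- dCAMs, beside 7.2% and 4.27% of all genes, the checkpoint ligand Cd274 (25.0 ± 46.3 to 323 ± 116 CPM, SD, n = 5) and Nudt17 (no count in CTL libraries, at least 22.5-fold higher) rising and Cd83 (3173 ± 964 to 322 ± 84.6 CPM) and Il15 (45.7 ± 26.7 to 7.65 ± 2.7 CPM) falling. In tdT+ dCAMs 3 rose (Cd274, Socs2 and Traf1) and 3 fell (Cd83, Cd86 and Il15). Socs2 and Traf1 were lower and Nudt17 was higher in tdT+ than in tdT- dCAMs of CTL mice. None of the 20 was called between the populations in LPS mice in the joint edgeR fit. In LPS mice Cacnb3 was at 10.7 to 39.4 CPM in tdT- and 0 to 1.56 CPM in tdT+ libraries. Cd200 was at 38.0 to 85.9 and 2.44 to 11.5 CPM. These ranges did not overlap, as for 1.15% of all genes in this direction, while those of the rest of the list did. The list's median between populations in LPS mice was -0.84, or -0.54 with bounds, beside 0 over all genes.

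Of 10 genes of type 2 conventional DCs, Clec10a, Mgl2 and Clec4a2 fell with LPS in tdT- dCAMs, and Clec10a, Mgl2 and Sirpa fell in tdT+ dCAMs. Mgl2, a galactose-binding lectin also made by macrophages, went from 1683 ± 465 to 84.9 ± 28.5 CPM (SD, n = 5) in tdT- and from 1677 ± 511 to 127 ± 68.8 CPM (SD, n = 5) in tdT+ dCAMs, and unlike Cd209a it did not differ between the populations of CTL mice by the threshold (-0.0051 on the log2 scale, adjusted p 1). Tnip3, an inhibitor of NF-kappaB signalling, was called lower in the tdT+ population of CTL mice. Of 8 tested genes of type 1 conventional DCs, Ly75 and Itgb8 rose (at least 22.4-fold and 45.2-fold, from the floor in CTL libraries) and Cadm1 and Naaa fell with LPS in tdT- dCAMs, Cadm1 fell in tdT+ dCAMs, and Cd24a was lower in tdT+ than in tdT- dCAMs of CTL mice. The defining type 1 marker Clec9a was over the floor in 2 of 20 libraries. In LPS mice Ly75 was at 3.26 to 13.6 CPM in tdT- and 0 to 0.681 CPM in tdT+ libraries, without overlap. The ranges of the other tested type 1 genes overlapped there.

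Of 12 lineage factors of conventional DCs, Nfil3 rose with LPS in both populations (80.2 ± 41.3 to 362 ± 10.03 CPM in tdT- and 41.4 ± 27.6 to 369 ± 18.2 CPM in tdT+ dCAMs, SD, n = 5), and no other was called in any of the 4 comparisons. Of 6 tested markers of plasmacytoid DCs, Siglech and Tcf4 fell with LPS in both populations. Among genes of monocyte-derived DCs, Fcgr1 and Cd14 rose and Ccr2 and Cx3cr1 fell in both populations, and Csf2rb rose in tdT- dCAMs. Ccr2, whose promoter drives the recombinase, was lower in tdT+ than in tdT- dCAMs of CTL (277 ± 112 against 615 ± 181 CPM, SD, n = 5) and of LPS mice (15.6 ± 5.96 against 70.8 ± 14.1 CPM). Of 8 tested partners of the 10 genes, Itgb2, which pairs with CD11c, and Ccl19 rose and Icam1 fell with LPS in tdT- dCAMs, and none was called elsewhere.

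Of the 12 border macrophage markers, 2 rose (Mertk and Itgam) and 6 fell (Mrc1, Lyve1, Folr2, Ms4a7, Apoe and C1qa) with LPS in tdT- dCAMs, beside 7.2% and 4.27% of all genes. In tdT+ dCAMs 1 rose (Itgam) and 5 fell (Mrc1, Folr2, Csf1r, Apoe and C1qa), beside 3.37% and 2.52% of all genes. Cd163 and Csf1r were higher in tdT+ dCAMs of CTL mice, and the LPS effect on Csf1r differed between the populations by -1.09 on the log2 scale. Markers of other cells were measured beside these results. T cell markers summed to at most 17.2 CPM and NK cell markers to at most 9.75 CPM in any library. B cell markers summed to 0 to 114 CPM, mast cell markers to 0 to 120 CPM and endothelial markers to 0 to 63.1 CPM. Neutrophil markers summed to 46.9 to 181 CPM in tdT- CTL and 351 to 1004 CPM in tdT- LPS libraries, and to 83.8 to 195 and 304 to 854 CPM in the tdT+ libraries. Their S100a8 and Csf3r rose with LPS in tdT- dCAMs, and S100a8 in tdT+ dCAMs, while Ly6g stayed under 1 CPM on average in each group. The mean of S100a9 went the other way, from 3.62 to 0.917 CPM in tdT- and from 4.33 to 0.236 CPM in tdT+ dCAMs. It was not called in either. Retnlg, another neutrophil marker, was at 23.2 to 642 CPM in tdT- LPS and 0 to 1.02 CPM in tdT+ LPS libraries (-9.36 on the log2 scale, edgeR adjusted p 0.682), the same direction as the 5 genes. It was at 0 to 171 CPM in tdT- CTL and 0 to 7.13 CPM in tdT+ CTL libraries. Cxcr2 averaged 2.48 CPM in tdT- LPS libraries, over the floor in 2 of 5, and was under the floor in all tdT+ LPS libraries. Microglia markers summed to 74.7 to 391 CPM in tdT- CTL, 427 to 665 CPM in tdT+ CTL, 599 to 780 CPM in tdT- LPS and 540 to 854 CPM in tdT+ LPS libraries. Fibroblast markers summed to 56.7 to 333 CPM in tdT- LPS and 88.5 to 313 CPM in tdT+ LPS libraries, ranges that overlapped where Fscn1 did not. In tdT- dCAMs, LPS libraries had Lck, Ms4a1 and Nkg7 at means of 1.88 to 3.61 CPM, from no count in CTL libraries, Col1a1 fell, and Tmem119 rose in both populations. Pecam1 was called higher with LPS in tdT+ dCAMs (11.5 CPM, from no count) and lower in tdT+ than in tdT- dCAMs of CTL mice, and Nkg7 higher. No mast cell marker was called. The part of other cells in the levels of the 10 genes was not tested.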

How the data were processed

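Raw counts per gene symbol were deposited by the authors for 20 libraries. Per the labels and methods, total RNA was amplified with a SMART-Seq kit (PCR, no molecular identifiers), sequenced, and processed with bcl2fastq 2.20, STAR 2.7.11a and featureCounts 2.0.6, with DESeq2 1.46.0 named for testing. The sources name more than 1 mouse genome build, so the GRCm38 coordinates serve only to locate genes.

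Genes with a total of at least 10 counts (16632 of 33243) were fitted jointly over 4 groups by edgeR 4.0.16 quasi-likelihood (R 4.3.3, TMM scaling), with contrasts for LPS in each population, for population in each treatment, and for their interaction. Calls required an adjusted p (Benjamini-Hochberg) under 0.05 together with a log2 fold change beyond 1 in either direction. Where a group was at or under 3 counts in every library, the fold was computed against 3 counts per library and given as a bound. Alternatives were limma 3.58.1 (voom), DESeq2 1.42.0, other scalings, filters and depths, sex as a term, fits of 10 libraries, and each mouse left out. Permutation tests used scipy 1.17.1 (Python 3.11.15).

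The 10 genes and all lists were chosen with earlier results of these data known. The genes named by likeness were the 3 with the highest r for a member, and some results are not reported here. Libraries of a mouse are paired by animal. Over 5823 genes, deviations of its tdT- and tdT+ libraries from their group means correlated at -0.0046 to 0.046 in CTL and 0.23 to 0.45 in LPS mice. No pair of libraries held identical values. In simulated counts of 16632 genes with the means and depths of these libraries, the fit recovered 14% of 4-fold and 47% of 16-fold changes for LPS in tdT- dCAMs. For tdT+ against tdT- dCAMs in LPS mice it recovered 13% and 49%. Changes were planted only in genes above a minimum expected total count, so recovery for genes near the floor was not measured. Bounds and floors cover counting error only.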

Additional observations from a re-analysis of the deposited data

Results flagged for a closer look

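Of 40 sets of 5 libraries (10 genes in 4 groups), 10 held a highest library whose gap to the next exceeded 0.71 of the set's range. In tdT- CTL libraries these were Flt3 in mouse 174 (348 CPM, next 43.7 CPM), Zbtb46 in mouse 174 (197 CPM, next 46.1 CPM), Ccr7 in mouse 175 (214 CPM, next 10.8 CPM), Ccl22 in mouse 175 (92.7 CPM, next 14.1 CPM) and Itgae in mouse 177 (26.02 CPM, next 0.113 CPM). In tdT- LPS libraries Flt3 stood apart in mouse 54 (20.8 CPM, next 6.72 CPM). In tdT+ CTL libraries Flt3 stood apart in mouse 179 (12.0 CPM, next 0.106 CPM) and Ccl17 in mouse 174 (1.62 CPM, next 0 CPM). In tdT+ LPS libraries the values were at or under 3 counts, Flt3 in mouse 59 (0.209 CPM) and Itgae in mouse 60 (0.156 CPM). These sets and that of Ccl17 in tdT+ CTL libraries had a count in 1 library only. Such a set exceeds the limit whatever the count, so the number flagged cannot be set against a chance rate.

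The LPS effect on Cd209a differed between the populations by 4.17 on the log2 scale (tdT+ minus tdT-, edgeR interaction term, adjusted p 0.0463, range over the alternatives 0.00204 to 0.163).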

How the results depend on the processing

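Counts of the 10 genes called moved with the test, the libraries fitted and single mice. For LPS in tdT- dCAMs (1 in the joint fit) the count was 2 with filterByExpr, 2 with DESeq2, 5 with the mouse block and 5 with limma-voom without the pairing (chosen after seeing the data), and 1 to 4 with a mouse left out. For LPS in tdT+ dCAMs (0) it was 3 with DESeq2, 2 with the block, 2 without the pairing and 0 to 1 with a mouse left out. Between populations of CTL mice (2) it was 4 with DESeq2, 1 in the 10 libraries compared, 1 there with the block and 1 to 3 with a mouse left out. Between populations of LPS mice (0) it was 5 in the 10 libraries and 5 there with the block. It was 0 with the block in all 20 libraries, 2 with DESeq2 and 0 with any mouse left out. For the interaction (1) it was 0 with sex as a term and 0 to 1 with a mouse left out. Counts over all genes ranged from 891 to 4532 (1907 in the joint fit), 694 to 2262 (979), 3 to 1644 (712), 1 to 85 (5) and 63 to 744 (209) in the same order.

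Directions reversed only for values that had not been called in the joint fit. For LPS in tdT- dCAMs, Itgax was 2.93 with the block and 2.93 without the pairing, and Itgae ran from -4.86 to 3.61 with a mouse left out (reversed without CTL mouse 177). For LPS in tdT+ dCAMs, Ccl22 was 0.52 with the block and 0.52 without the pairing, Itgae -0.12 with both, and Flt3 ran from -7.74 to 0.42 (reversed without 179). Between populations of CTL mice, Ccl22 was 0.66 with the block, 0.69 with the block in 10 libraries, and ran from -0.63 to 0.98 (reversed without 175). For the interaction, Flt3 was 0.75 with the block, and Batf3 -0.15 in thinned counts and -0.021 with the block. With a mouse left out, the interaction ran from -4.54 to 4.07 for Flt3 (reversed without 179), from -4.32 to 0.95 for Ccr7 (without 177 and 178), from -0.85 to 1.36 for Zbtb46 (without 174 and 60), from -0.41 to 0.53 for Batf3 (without 179, 56 and 61) and from -1.67 to 6.97 for Itgae (without 177). The causes were not tested.

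No pair of genes passed in any of the 14 alternatives of the co-variation, and all 40 group means moved by less than 1 SD with DESeq2 size factors. Itgae had no value under filterByExpr, in the 10 tdT+ libraries, or as a DESeq2 adjusted p. Genes at a few counts per library, such as Itgae and tdT+ Flt3, are limited by depth.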
